A study of Arabidopsis thaliana with 2 samples.

Results

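Intergenic non-coding RNA genes on the chromosome arms of Arabidopsis thaliana were described here through the nucleosomes listed on and around them. They are the gene models typed lncRNA or ncRNA in the RefSeq annotation of assembly TAIR10.1 that lie over 1 kb from every protein-coding gene, in windows of 500 kb with at least 50% of their chromosome's median density of protein-coding genes. This rule, which uses no nucleosome, left 727 of the 3701 lncRNA and ncRNA models among 37899 nuclear genes. Of these, 684 are typed lncRNA and 43 ncRNA.

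The series holds 1 library from nrpe1, a strain mutant for the largest subunit of RNA polymerase V, and 1 from Col-0, the wild type, both from seedlings of 2 to 3 weeks grown in long days. Micrococcal nuclease (MNase), which cuts the linker DNA between nucleosomes, was used to digest chromatin, and the protected DNA was taken from a gel of 2% agarose and sequenced. The deposited list pools both libraries into 397452 nucleosomes and names no genotype for any of them, so nrpe1 was not compared with Col-0, every value below describes the pooled list, and the depth of each library is unknown. With no replicates there was no test; spread is given over genes or as the SD over the 5 chromosomes, which are parts of one genome and not biological replicates.

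A nucleosome is DNA wrapped around an octamer of histones, and MNase maps show where along a gene such particles protect the DNA. Long non-coding RNAs are transcripts without a long reading frame; in plants some are precursors of small RNAs and others bind proteins or chromatin. RNA polymerase V, to which NRPE1 belongs, makes non-coding transcripts that serve as scaffolds for RNA-directed DNA methylation, and SWI/SNF complexes, named in the title of the series, use ATP to move nucleosomes.

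The 727 genes are short. Their median length was 316 bp (quartiles 246 and 442.5 bp), the shortest had 126 bp and the longest 7767 bp. The median gap to the nearest protein-coding gene was 1790 bp, and the widest was 26308 bp. On chromosomes 1 to 5 there were 194, 138, 144, 106 and 145 of them. Of the 727 genes, 256 share sequence with another annotated gene, 197 of them with another gene of the same set, so that the 727 models make up 628 separate loci. Where 2 models overlap, a nucleosome counts for each.

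Listed nucleosomes were denser inside the non-coding RNA genes than in the sequence beside them. Inside the 727 genes there were 964 listed centres, or 3.27 per kb. In the 500 bp on either side, leaving out bases under any other gene, there were 1.20 per kb, so that the density inside was 2.73 times that of the flanks. Gene-free windows of the same length 2 to 10 kb away, which could be placed for 716 of the genes, held 1.09 per kb against 3.29 per kb inside those genes, a ratio of 3.03. Listed intervals covered 41.3% of the genes and 14.4% of the distant windows. In other genes on the arms the ratio of body to flank was higher. It was 3.05 in non-coding RNA genes within 1 kb of a protein-coding gene, 4.04 in those overlapping one, and 3.77 in protein-coding genes.

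Each chromosome gave the same order of body over flank. Inside the genes the density was 3.26 ± 0.0992 per kb (SD, n = 5 chromosomes), against 1.21 ± 0.218 per kb in the flanks and 1.07 ± 0.117 per kb in the distant windows. The lowest chromosome inside genes, chromosome 4 with 3.13 per kb, stood above the highest in the flanks, chromosome 3 with 1.55 per kb. The ratio of body to flank ran from 2.07 on chromosome 3 to 3.34 on chromosome 5, and that of body to distant windows from 2.68 on chromosome 3 to 3.5 on chromosome 2. Flanks and distant windows could not be told apart beyond the spread of chromosomes, at a ratio of 1.13 ± 0.176.

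**Figure D1:**
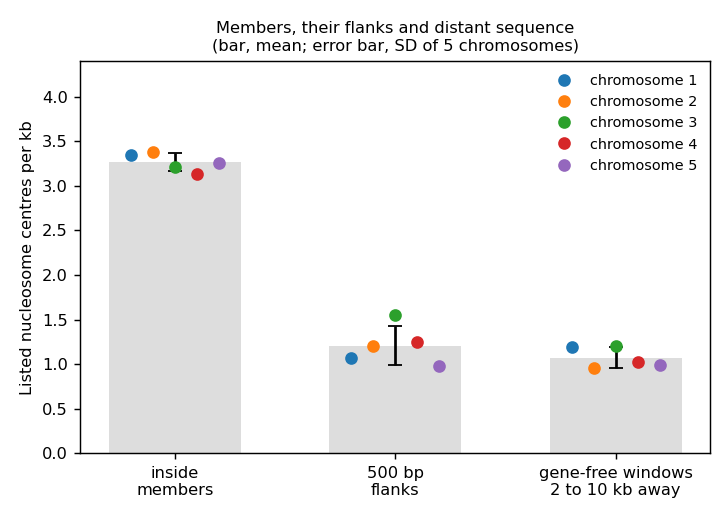
Listed nucleosome centres per kb (y axis) inside the intergenic non-coding RNA genes, in their 500 bp flanks and in gene-free windows of equal length 2 to 10 kb away. Points are the 5 chromosomes, bars their mean and error bars the SD; the points inside genes lie between 3.13 and 3.38 per kb and all other points at or below 1.55.

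The sequence on the side of the nearest protein-coding gene differed little in density from the side facing away. The flank towards that gene held 1.21 centres per kb and the opposite flank 1.18 per kb. The side towards the gene was the denser one on chromosomes 1, 3 and 5 and the sparser one on chromosomes 2 and 4.

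The excess over the flanks was not shared by every gene. Of the 718 genes with at least 100 bp of unannotated flank, 405 (56.4%) held at least 2 times the density of their flanks, against 69.4% of all nuclear genes measured in the same way. Another 106 (14.8%) held at most 0.5 times the density of their flanks, against 3.58% of all nuclear genes. Of these 106, 97 had no centre inside. Of the 405, 216 had no centre in their flanks, so that any centre inside passed the limit. All nuclear genes are mostly longer. Non-coding RNA genes within 1 kb of a protein-coding gene on the arms, of similar length, came close to the set. Their shares were 59.0% at 2 times or more and 13.8% at 0.5 times or less. Counting any difference, 500 of the 718 genes were denser than their flanks, 127 were sparser and 91 were equal, and 87.4% of all nuclear genes were denser. Against the distant windows, 466 of 716 genes held at least 2 times the density, beside 74.4% of all nuclear genes that had such windows.

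A listed centre was absent from 190 of the 727 genes. A single centre lay in 285 genes, 2 in 157, 3 in 60, 4 in 21 and 5 or more in 14. The 537 genes with a centre are 73.9% of the set, against 94.5% of all nuclear genes, which are mostly longer. Under 500 bp, a centre lay in 413 of 585 lncRNA genes (70.6%) and 9 of 13 ncRNA genes (69.2%) of the set. Of all nuclear genes under 500 bp, 70.0% had one. Of the 190 genes without a centre, 43 were touched by a listed interval and 147 by none, and 93 of the 190 had no centre in their flanks either. At the other end, 22 genes were covered from end to end by listed intervals, and 216 genes had a centre inside and none in the flanks. Neither count was made over all nuclear genes.

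Protein-coding genes of the same length were denser than the intergenic non-coding RNA genes. Among models of 250 to under 500 bp, the intergenic non-coding RNA genes held 3.36 centres per kb and 73.4% had a centre, while protein-coding genes on the arms held 4.38 per kb and 89.9% had one. At 500 bp to under 1 kb the values were 3.40 per kb and 88.6% for the non-coding genes, and 4.30 per kb and 97.5% for protein-coding genes. At 1 kb or longer, the 24 non-coding genes held 2.41 per kb and protein-coding genes 4.02 per kb. A body at least 2 times as dense as its flanks was found in 55.3% of the non-coding genes of 250 to under 500 bp and in 72.5% of protein-coding genes of that length.

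Among non-coding genes that overlap no protein-coding gene, density inside showed no steady trend with the distance to the nearest such gene. The 1413 models on the arms that do overlap a protein-coding gene were denser, at 4.08 per kb. Those within 1 kb of a protein-coding gene, 1307 models on the arms, held 3.42 centres per kb, with 1.12 per kb in their flanks. By chromosome the density was 3.26 ± 0.0992 per kb in the intergenic set and 3.43 ± 0.167 per kb in those closer by (SD, n = 5). At the limit itself, the 133 genes with a gap of over 1000 to 1200 bp held 3.71 per kb and the 161 with a gap of over 800 to 1000 bp held 3.49 per kb. Within the intergenic set the density was 3.26 per kb at gaps of 1 to 1.5 kb, 3.31 at 1.5 to 2.5 kb, 3.04 at 2.5 to 5 kb and 3.72 in the 57 genes over 5 kb away. The flanks of those 57 genes held 1.80 per kb, against 1.11 to 1.16 per kb in the other gap classes.

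**Figure D2:**
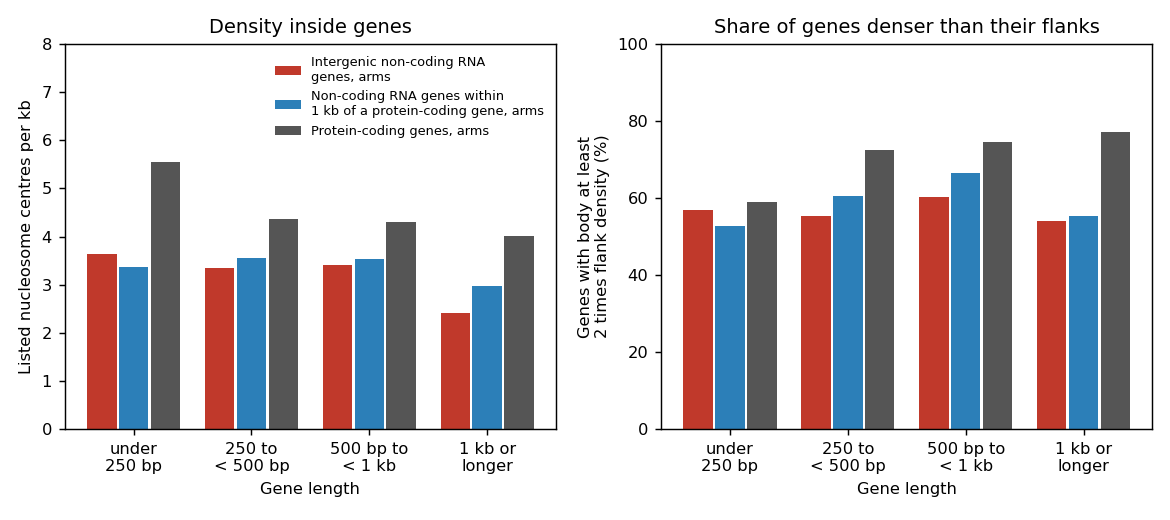
Left, listed nucleosome centres per kb inside genes; right, the percentage of genes whose body holds at least 2 times the density of their flanks; both by gene length (x axis) for intergenic non-coding RNA genes, non-coding RNA genes nearer to protein-coding genes, and protein-coding genes, all on arms. Intergenic non-coding genes lie below protein-coding genes in all 4 length classes of both panels, closely so on the right under 250 bp (56.9% against 59.0%).

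The density inside the genes stayed nearly level while that of the surroundings ranged widely. The 138 genes whose distant windows held under 0.5 centres per kb (0.236 on average) had 3.11 per kb inside, and 73.2% of them had a centre. The 68 genes whose distant windows held over 2 per kb (2.93 on average) had 3.56 per kb inside, and 70.6% of them had a centre. Between these, the values inside were 3.36 and 3.24 per kb. The flanks followed the surroundings further, with 0.859, 1.13, 1.37 and 1.61 per kb from the sparsest to the densest class. Across 716 genes, Spearman's rho between the density inside and in distant windows was -0.0052, and across 718 genes it was 0.133 between body and flank. Between flank and distant windows it was also weak, at 0.133 across 707 genes. Genes that lie near each other share their windows, so these coefficients are descriptions.

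**Figure D3:**
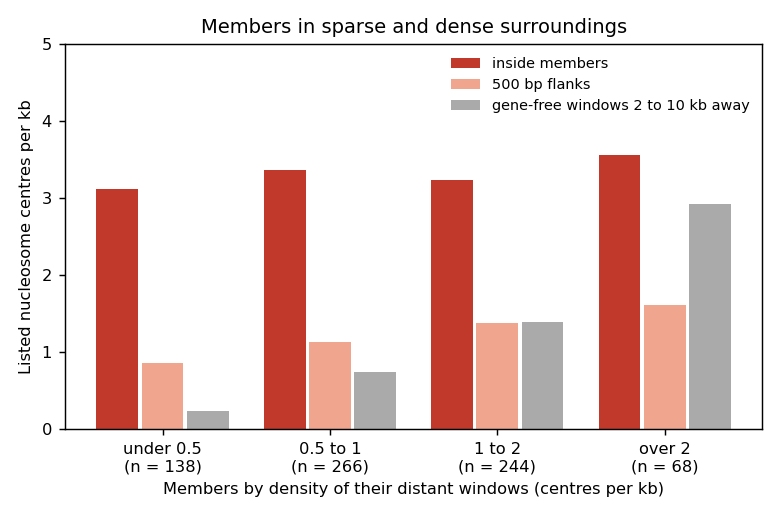
Listed nucleosome centres per kb inside intergenic non-coding RNA genes, in their flanks and in their distant windows, for genes grouped by the density of the distant windows (x axis, with the number of genes). Bars inside the genes lie between 3.11 and 3.56 per kb, while the distant windows that define the groups go from 0.236 to 2.93 per kb.

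Nucleosome density changed close to the annotated ends of the genes. Starts and ends were pooled, because the gene table gives no strand. From 300 to 100 bp outside the genes the density was 0.976 ± 0.209 per kb, in the last 100 bp outside it was 1.71 ± 0.326, and in the first 50 bp inside it was 3.18 ± 0.121 (SD, n = 5 chromosomes). Farther inside, from 150 to 250 bp, which only genes of over 300 bp have, it reached 3.95 ± 0.635 per kb. The first 50 bp inside thus held 0.828 ± 0.17 of the density at 150 to 250 bp.

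Protein-coding genes of all lengths climbed more slowly, and short ones did not. In protein-coding genes on the arms the first 50 bp inside held 1.65 ± 0.112 per kb, which was 0.44 ± 0.0285 of their density at 150 to 250 bp. Protein-coding genes under 500 bp held 3.53 ± 0.629 per kb in the first 50 bp and 1.68 ± 0.34 per kb in the last 100 bp outside, which differ from the values of the intergenic non-coding genes by less than these SDs. From 50 to 150 bp inside these short protein-coding genes were the denser ones, at 4.89 and 5.07 per kb, against 3.42 and 3.09 per kb in the non-coding genes. Non-coding RNA genes within 1 kb of a protein-coding gene held 3.24 ± 0.273 per kb in the first 50 bp. Among the 285 non-coding genes with 1 centre, it lay in the middle 50% of the gene in 154 and nearer to an end in 131.

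**Figure D4:**
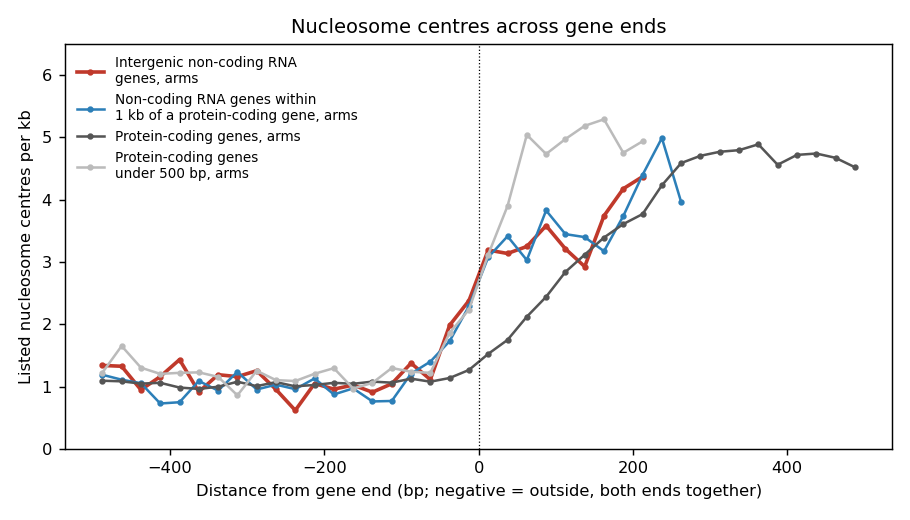
Listed nucleosome centres per kb (y axis) by distance from the annotated gene ends (x axis, bins of 25 bp, both ends together, negative outside) for intergenic non-coding RNA genes, nearer non-coding RNA genes, protein-coding genes and short protein-coding genes on arms. Both non-coding groups and the short protein-coding genes pass 3 per kb at the gene end, where protein-coding genes of all lengths stand near 1.5; bins with under 10000 bp are not drawn.

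The nucleosomes inside the genes resembled others of the list in width and score. Counted once each, there were 865 with a median interval of 137 bp, as in the flanks. The score is the authors' own value per nucleosome, is never below 0.5 in this list, and was used only to rank. Its median was 0.799 inside the genes, 0.813 in the flanks, 0.809 in unannotated sequence 2 to 10 kb away and 0.788 in protein-coding genes on the arms. The medians of single chromosomes inside the genes ran from 0.790 to 0.819 and overlapped those of the flanks, 0.802 to 0.827. A neighbour was overlapped by 48.0% of the nucleosomes inside the genes, by 39.6% of those in the flanks and by 62.2% of those in protein-coding genes. Between successive centres in one gene the median distance was 125 bp over 427 pairs, where a pair in 2 overlapping models counts for each. Only pairs that fit inside a gene are seen, which in short genes favours short distances. Of these pairs 46.8% lay under 120 bp apart, which means overlapping intervals, and 18.7% lay from 160 to under 220 bp.

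Within the set, models typed ncRNA were longer and sparser than those typed lncRNA. The 43 ncRNA genes had a median length of 947 bp and 2.33 centres per kb, covering 30.0% of their sequence, and the 684 lncRNA genes had 313 bp and 3.43 per kb, covering 43.2%. At 500 bp or longer, 30 ncRNA genes held 2.19 per kb and 99 lncRNA genes 3.47 per kb, with flanks of 1.23 and 1.31 per kb. Over chromosomes the ncRNA genes varied from 1.21 to 3.45 per kb (2.18 ± 0.852) and the lncRNA genes from 3.32 to 3.58 per kb (3.45 ± 0.095), so that their ranges overlap. The 13 ncRNA genes under 500 bp held 3.80 per kb, near the 3.42 per kb of lncRNA genes of that length.

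The described non-coding RNAs of the set belonged to the longer, ncRNA type. TAS3 (AT3G17185, chromosome 3, 947 bp) is the precursor of trans-acting small RNAs that target auxin response factor transcripts. It held 2 centres, at 5861477 to 5861605 with a score of 0.903 and at 5861975 to 5862110 with a score of 0.819, so that 26.5% of it was covered. Its density of 2.11 per kb compares with 2 per kb in its flanks and 1.02 per kb in its distant windows. The first of these nucleosomes straddles one end of the gene and the second lies near its middle.

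TAS4 (AT3G25795, chromosome 3, 1155 bp), the precursor of small RNAs that target MYB transcription factor transcripts, held 1 centre, at 9417685 to 9417831 with a score of 0.786. That is 0.866 per kb, against 2 per kb in its flanks, and 12.7% of the gene was covered. ASCO (AT1G67105, chromosome 1, 786 bp), a long non-coding RNA that binds splicing regulators, was the denser one, with 4 centres or 5.09 per kb and 62.3% covered, against 2 per kb in its flanks and 0.615 per kb in its distant windows. Its nucleosomes lay at 25057671 to 25057809, 25057785 to 25057912, 25057963 to 25058089 and 25058085 to 25058210, with scores of 0.875, 0.571, 0.747 and 0.635. Only the first of these scores at or above the list's median of 0.790, which leaves ASCO with 1.27 per kb among the higher-scoring nucleosomes.

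Of the 129 genes of 500 bp or longer, the densest was AT4G04895 on chromosome 4, with 5 centres in 501 bp, or 9.98 per kb. Its intervals covered all of the gene, and its flanks were dense too, at 7 per kb. None of its 5 nucleosomes reached the list's median score, the highest being 0.755. With only the highest-scoring of overlapping nucleosomes, an alternative chosen after seeing the data, it held 3.99 per kb, below AT5G07425 with 5.79 and AT1G07627 with 5.42 per kb, so its first place depends on overlapping calls. AT1G07627 on chromosome 1 held 5 centres at 9.03 per kb, against 2 per kb in its flanks.

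AT3G60176 on chromosome 3, an ncRNA gene of 1010 bp, held 8 centres at 7.92 per kb and its flanks another 8. With only the highest-scoring of overlapping nucleosomes its density was 3.96 per kb. The 9 gene-free windows that could be placed 2 to 10 kb away held 0.77 per kb. AT1G06313 and AT1G06357 on chromosome 1 and AT5G07425 on chromosome 5 held 7.91, 7.56 and 7.72 per kb. AT1G06357 and AT5G07425 had no centre in their flanks, and each of these 3 genes overlaps another lncRNA gene.

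A body without any centre was found in 14 of the 129 genes of 500 bp or longer. From 500 bp to under 1 kb, 88.6% of the set held a centre. Nearer non-coding RNA genes and protein-coding genes on the arms gave 92.1% and 97.5%. At 1 kb or longer, the shares were 91.7% in the set, 100% in nearer non-coding RNA genes and 99.8% in protein-coding genes. Of the 14 genes without a centre, the first 6 by locus identifier are named. AT1G04253, AT1G06393, AT1G08103 and AT1G08283 on chromosome 1 and AT2G07945 on chromosome 2 had none in the unannotated part of their flanks either. Their distant windows held between 0.162 per kb (AT1G08103) and 1.64 per kb (AT1G06393). AT2G09450 on chromosome 2 differed from these, with 2 centres in each flank and 8.78% of the gene touched by an interval.

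The widest differences between body and flank in centres per kb belonged to short genes, where a few centres make a high density. AT5G01475 on chromosome 5, of 362 bp, was covered from end to end by 4 nucleosomes, at 2614574 to 2614697, 2614647 to 2614790, 2614756 to 2614876 and 2614831 to 2614969. It reached 11.0 per kb, against 0 in its flanks. AT3G06655 on chromosome 3 was covered by 3 nucleosomes in 300 bp and AT4G09495 on chromosome 4 by 2 in 203 bp, both with none centred in the flanks. AT1G08933 on chromosome 1 held 2 in 199 bp. The 2 nucleosomes of AT4G09495, at 17536955 to 17537077 and 17537072 to 17537231, carried high scores of 0.908 and 0.955.

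In the other direction, the 4 genes whose density lay farthest below that of their flanks had few unannotated flank bases. AT3G05765 held 1 centre, or 2.43 per kb, against 3 in 371 bp of flank. AT1G08213 held 1 in 507 bp, against 1 in 144 bp of flank. AT3G03735 held none against 3 in 611 bp, and AT1G07417 none against 1 in 237 bp. These differences therefore rest on 1 to 4 nucleosomes each. By any overlap of an interval, AT3G05765 stood at 4.87 and AT3G03735 at 4.83 per kb.

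The highest score in the set, 0.980, belonged to a nucleosome at 6117543 to 6117669 on chromosome 3, at one end of AT3G03555. This lncRNA gene of 407 bp was covered throughout by 4 nucleosomes and had none centred in its flanks. Only 3 distant windows could be placed for it, and they held 6.55 per kb.

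**Figure D5:**
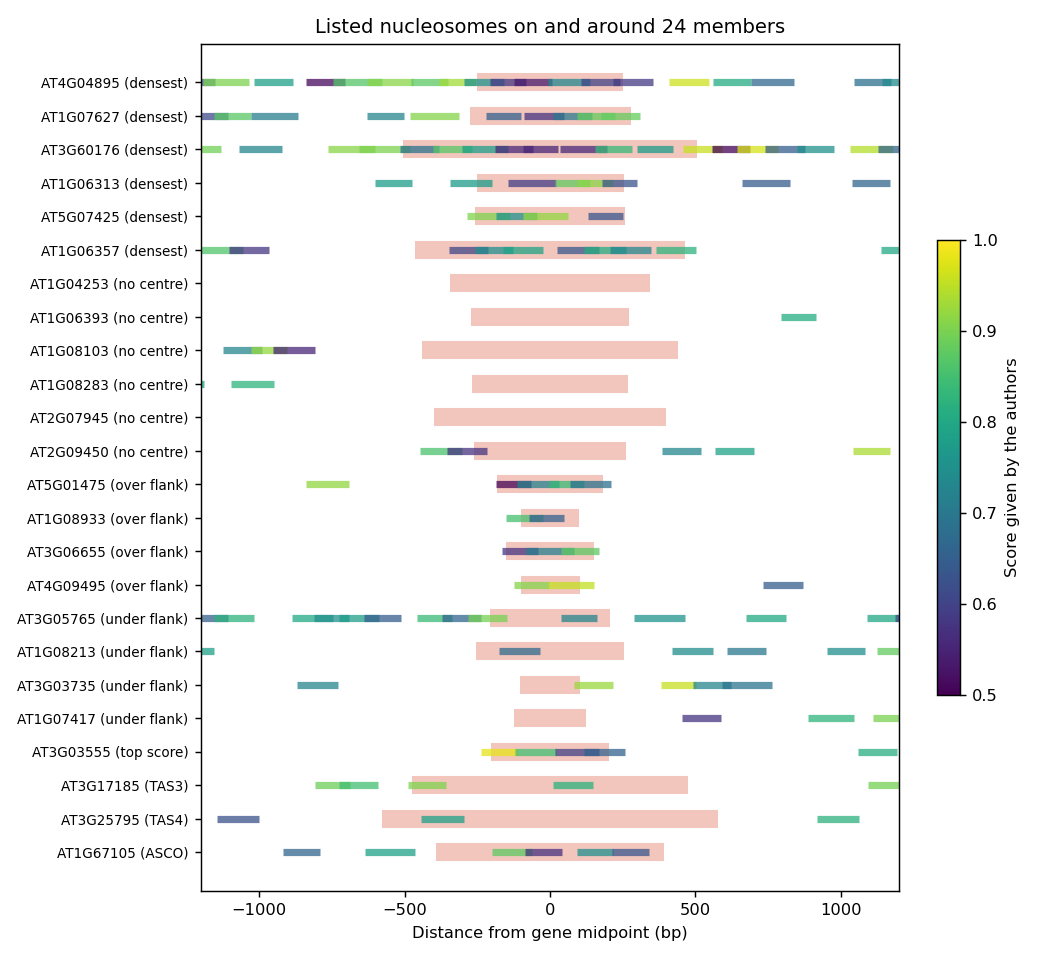
Listed nucleosomes (short bars, coloured by the authors' score) on and around 24 intergenic non-coding RNA genes (pale bars), by distance from the gene's midpoint in bp. The 6 densest genes and the 4 with the widest difference over their flanks carry overlapping nucleosomes across most of the body, 5 of the 6 genes without a centre have no nucleosome on the body, and TAS3, TAS4 and ASCO carry 2, 1 and 4.

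Some long genes were nearly empty along most of their length. These and the genes of the next paragraph were singled out after their values had been seen. AT4G13495 on chromosome 4, an ncRNA gene of 3808 bp whose sequence also holds 3 miRNA gene models, had 2 centres, or 0.525 per kb, with 7.06% covered. AT5G24205 on chromosome 5, of 2265 bp, had 2, and AT3G46614 on chromosome 3, of 1643 bp, had 1. AT2G36307 on chromosome 2, of 1376 bp, which the table names ZPR4, and AT5G24206 on chromosome 5, of 1064 bp, had none. By contrast AT2G24755, the longest gene at 7767 bp, which overlaps 2 pseudogene models on chromosome 2, held 27 centres at 3.48 per kb. AT3G27884 on chromosome 3 held 8 in 2197 bp, or 3.64 per kb, with none in its flanks.

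Genes that share sequence with small nucleolar RNA models, whose products guide the modification of other RNAs, were almost without listed nucleosomes. Those 5 genes held 1 centre together, or 0.42 per kb, with 0.32 per kb in their flanks, and 4 of the 5 had no centre. They are 4 loci, since AT4G06225 and AT4G06235 overlap each other. AT1G08103 is one of them, with 4 snoRNA models in its 880 bp. The 5 genes that share sequence with miRNA models held 8 centres, or 1.51 per kb, and AT4G13495 makes up most of their length. The 41 genes that overlap models of the type misc_RNA held 2.36 per kb, and 22 of them had a centre. The 5 genes that overlap transcribed pseudogenes held 3.50 per kb, 27 of their 32 centres being those of AT2G24755, and the single gene that overlaps an snRNA model, AT1G06867, held 3 centres at 8.65 per kb.

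Genes that overlap another gene of the set were much like the rest. The 98 loci made of 2 or 3 overlapping models held 3.37 centres per kb with 1.17 per kb in their flanks, and the 530 loci of single models held 3.16 per kb with 1.22 per kb in their flanks. The larger loci had a median length of 504.5 bp, against 310 bp, and 81.6% of them held a centre, against 72.6%.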

How the data were processed

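The authors deposited 1 list with chromosome, start, end and score for each nucleosome, per the file headers. The submitters' processing notes name Bowtie and TAIR10; for the nucleosome caller, the meaning of the score and the way of joining the libraries, these sources give nothing. In the list, 0 columns hold values of single libraries. Genes came from the RefSeq table of TAIR10.1, which gives no strand and whose coordinates are not printed; nucleosome coordinates are printed as listed.

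A nucleosome was assigned by its centre. Density is the summed number of centres over summed length. Flanks were 500 bp on each side without bases under any gene, with at least 100 bp needed for a comparison per gene. Distant windows were all gene-free windows of the gene's length 2 to 10 kb away in steps of 100 bp, averaged per gene. Both genotypes are pooled and listed intervals overlap, so the density may mix occupancy with alternative positions, which was not tested. Counting was checked on simulated lists (Python 3.11.15, numpy 2.4.6, pandas 2.3.3). The members, lists and alternatives were chosen with earlier results of these data known. Named genes of 500 bp or longer are the 6 densest and 6 sparsest. Genes of any length are the 4 with the largest and the 4 with the most negative difference from flanks, the one with the top score, and 3 of 15 listed described non-coding RNAs. Transposable elements, mappability and base composition were not analysed here.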

Additional observations from a re-analysis of the deposited data

How the results depend on the processing

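No paired analysis was possible because the list does not tell the 2 libraries apart; nrpe1 against Col-0 was not run. Of the alternative values for the set as a whole, 105 stayed within 1 SD over chromosomes, or within 1.5 times for counts. The other 12 moved beyond it. A direction could be judged only for ratios, and none of these changed it. Many alternatives, such as leaving out 1 chromosome or shifting starts by 1 bp, keep most of the data. Staying within 1 SD says little for those. With only the upper-scoring nucleosomes, from the median score up, the density was 1.70 per kb and the share covered 22.8%, since fewer are counted. By any overlap the density was 3.97 per kb and the ratio of body to flank 2.09. By centres that ratio was 2.73, so the flanks gained more in proportion than the bodies did. Over 2 kb from protein-coding genes the density was 3.17 per kb and the median score 0.814. There, 157 of 293 genes had at least 2 times the density of their flanks. That count was 259 of 471 in genes that overlap no other gene and 232 of 404 in genes of 300 bp or longer. The whole set gave 405 of 718, so these counts are lower because fewer genes are left. With only the highest-scoring of overlapping nucleosomes, an alternative chosen after seeing the data, the density was 2.47 per kb, the share covered 34.3% and the median score 0.829, and body over flank was 2.53. Merged loci, flanks without their inner 100 bp, and the alternatives for gene ends and gene types were also chosen after seeing the data. Over all alternatives body over flank ran from 2.09 to 3.03 and body over distant windows from 2.72 to 3.13. Leaving out single chromosomes gave 2.61 to 2.96 for body over flank, 2.94 to 3.13 for body over distant windows, and 1.31 to 1.77 for lncRNA over ncRNA density. The densities of the 24 named genes rest on few nucleosomes and move more. They changed by over 1.5 times in 14 genes with only the upper-scoring nucleosomes, where AT4G04895, AT3G05765, AT1G08213 and TAS4 were left with 0, in 10 with only the highest-scoring of overlapping nucleosomes, in 3 by any overlap and in 0 with starts shifted by 1 bp. Of these, 7 left the 95% Poisson counting interval of the gene's own count, all with only the upper-scoring nucleosomes; that interval is wide at such counts. Depth per library is unknown, and a gene without a listed nucleosome may hold some below the list's lowest score.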

Other observations

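The same rule applied to gene-poor windows gave 151 intergenic non-coding RNA genes with 4.13 centres per kb, against 3.27 per kb on the arms. Their flanks held 2.27 per kb, so that the ratio of body to flank was 1.82 in gene-poor windows and 2.73 on the arms. Over chromosomes it was 1.91 ± 0.329 in gene-poor windows and 2.77 ± 0.502 on the arms (SD, n = 5). The density inside was 4.08 ± 0.873 per kb in gene-poor windows and 3.26 ± 0.0992 per kb on the arms, a difference within the larger SD. That of the flanks was 2.20 ± 0.667 and 1.21 ± 0.218 per kb. Non-coding RNA genes that overlap a protein-coding gene, 1413 on the arms, held 4.08 per kb, near the 4.03 per kb of protein-coding genes there.

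Of the 15 loci listed as described non-coding RNAs, 12 are outside the intergenic set. Among the other precursors of trans-acting small RNAs, TAS1A (AT2G27400) held 3 centres, or 3.23 per kb, and TAS1B (AT1G50055), TAS1C (AT2G39675) and TAS2 (AT2G39681) held 2 each, at 2.38, 2.02 and 1.93 per kb. TAS3 and TAS4 held 2.11 and 0.866 per kb. Beside these 6 precursors, intergenic ncRNA genes of 500 bp or longer held 2.19 per kb, which TAS1A and TAS1B exceed. The remaining loci included AT1G21529, AT1G69572 and AT4G16355 at 5.3, 4.83 and 5.09 per kb. AT2G34655, typed protein-coding in the table, held 8 centres at 8.17 per kb with none in its flanks, and AT5G00580, typed misc_RNA, held 1 in 1941 bp. IPS1 (AT3G09922), also typed protein-coding, held 1 centre at 1.85 per kb, AT5G03545 held 2 at 2.14 per kb, and AT2G35747, an 80 bp model typed snoRNA, held 1.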
